A study of Rattus norvegicus with 18 samples.

Results

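Taurine reaches the cells of the eye along 2 routes, uptake from blood and local synthesis, and the genes described here are the 6 that serve these routes directly: the transporters Slc6a6 and Slc6a13, and the synthesis genes Cdo1, Csad, Ado and Gadl1. They were chosen by what they encode, and each was looked up by its symbol with no threshold on any measured value. The list was nevertheless drawn up with earlier results of these data known, so the p-values given for its members come from fits across all genes and are descriptions, not independent evidence. Of the 6 symbols, 5 were found among 32285 genes measured in the retina and 4 among 32552 measured in RPE/choroid, the retinal pigment epithelium with the vascular layer behind it. Gadl1 was found in neither tissue, and Ado was found by symbol only in the retina.

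The study sequenced RNA from wild-type Fischer344 rats, a strain used as a model of aging. Young rats were 4 months old and untreated, aged rats were 24 months old and had received water only, and 8-AG treated aged rats reached 24 months after 8 weeks of 8-aminoguanine in their drinking water at 5 mg/kg/day, begun at 22 months. Each of these 3 groups gave 3 neural retina and 3 RPE/choroid libraries, 18 in all, and all rats were female. Retina libraries were made from poly-A captured RNA, while RPE/choroid, which yields little RNA, went through a poly-A selection with enrichment for full-length transcripts, so levels were never compared between the tissues. The labels call the material of the 3 8-AG treated retina libraries total RNA and that of all others poly-A RNA, and a difference in preparation cannot be told apart from the treatment in that tissue. In RPE/choroid, young libraries 1 and 2 carry one and the same number with left and right marks, as do aged libraries 1 and 2. Nothing states that the remaining libraries came from separate animals, so p-values measure the spread between libraries.

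Taurine is an amino sulfonic acid and the most abundant free amino acid of the retina, where it acts as an osmolyte and protects photoreceptors, which degenerate when it is lacking. Most of it is carried in from the choroidal blood across the RPE and then into photoreceptors and Müller glia by the sodium- and chloride-dependent transporter TauT, the product of Slc6a6. GAT2, encoded by Slc6a13, is a carrier of GABA that also takes up taurine and sits mainly in barrier tissues. Local synthesis starts from cysteine. Cdo1 oxidizes cysteine to its sulfinate, Csad decarboxylates the sulfinate to hypotaurine, Ado makes hypotaurine from cysteamine instead, and Gadl1 encodes a related decarboxylase that acts on acidic amino acids.

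Slc6a6 was the member whose level differed between the ages, and the stretch before its start is shown for that reason. RefSeq's promoter table, built on the rat assembly GRCr8, had entries for 4 of the 6 members and none for Slc6a13 or Cdo1. The bases printed run from 250 to 163 before the annotated start, all of them ahead of any annotated Slc6a6 exon, at chr4:125752252-125752339 on the plus strand. Capitals mark GC boxes, searched as GGGCGG and its reverse complement CCGCCC.
Slc6a6 promoter: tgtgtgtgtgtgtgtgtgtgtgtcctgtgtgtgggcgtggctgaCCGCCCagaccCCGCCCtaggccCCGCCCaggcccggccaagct
The 3 GC boxes begin 206, 195 and 183 bases before the start and all lie on the opposite strand, behind a run of TG repeats. At least 1 GC box was present in 33.1% of the 33469 promoter entries of the same 300 bases, and 8.4% held 3 or more. The letters TAATCC, the core bound by the photoreceptor factor Crx, were not in the Slc6a6 window on either strand and were in 7.2% of entries. A single TGGAAA, the core bound by NFAT factors, lay on the opposite strand 156 bases before the start, and 22.7% of entries held one. Such matches describe the letters only.

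The retina libraries held 12283458 to 15644346 counts and the RPE/choroid libraries 28573828 to 48203050. Rod markers, the genes of the light-sensing cells, summed to between 33993 and 58897 counts per 1000000 counts of the library (CPM) in retina libraries, where 12 RPE markers summed to between 274 and 604. In RPE/choroid the RPE markers summed to between 6519 and 19063 CPM, and rod markers ranged from 616 to 55855, so neural retina was present there in very unequal amounts. The first 8-AG treated RPE/choroid library stood apart from the other 8: it held the lowest RPE sum, the highest rod sum, 42330 CPM of striated muscle markers against at most 4065 elsewhere, and 595 CPM of endothelial markers against at least 3080. Results in 8-AG treated RPE/choroid are therefore given with and without it. Surface epithelium markers, a list of keratin genes, summed to 1276 CPM in this library and to 219 CPM in the third treated one. The other RPE/choroid libraries held at most 11.1 CPM of them. Lens markers summed to 2837, 6339 and 143 CPM in the 3 young retina libraries to at most 3.38 in the aged ones and to between 4.07 and 1766 in the treated ones.

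The taurine transporter of the retina fell 2.13-fold with age. Slc6a6 (ENSRNOG00000009019) stood at 862, 873 and 889 CPM in the 3 young retina libraries and at 400.0, 374 and 456 CPM in the 3 aged ones. The lowest young library was well above the highest aged library, and the young libraries lay close together. Group means were 875 ± 13.3 and 410 ± 41.8 CPM (SD, n = 3), resting on 5130 to 13159 counts per library. The log2 fold change was -1.09 with a standard error of 0.08 and a 95% interval from -1.26 to -0.92 (edgeR quasi-likelihood test, Benjamini-Hochberg adjusted p = 6.29e-05 over 14588 genes), which leaves 46.8% of the young level. Of the 5 members tested in this comparison, Slc6a6 alone passed an adjusted p of 0.05, a threshold passed by 14.5% of all genes tested (8.38% without the second and 8.98% without the first young library), and alone met the study's own rule of an unadjusted P below 0.05 together with more than a 1.5-fold difference, met by 8.84%. The aged and young libraries did not overlap for 2 of the 5, Slc6a6 and Slc6a13, against 35.5% of all genes tested.

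**Figure D1:**
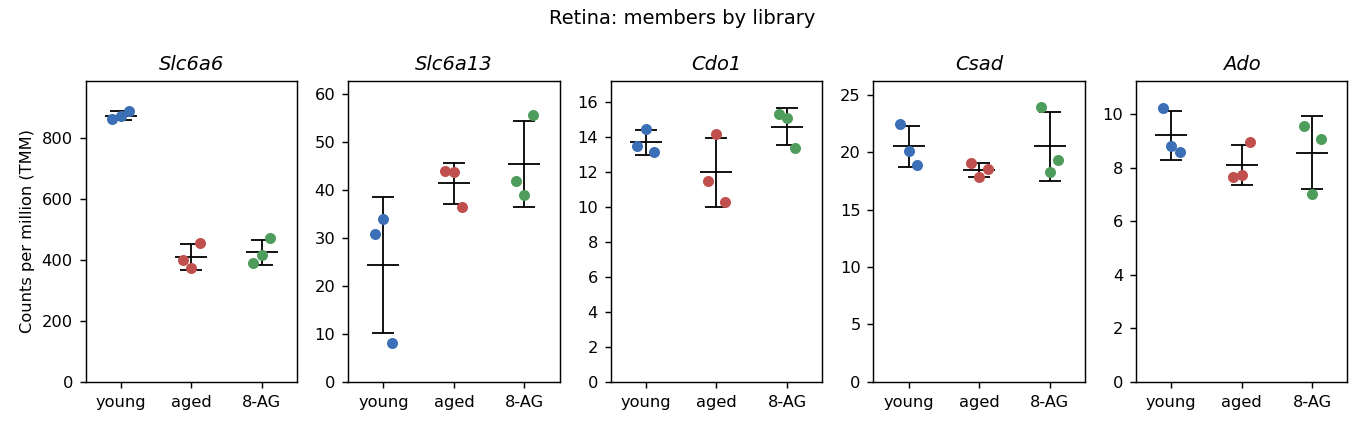
Level of each member in every retina library, in TMM-normalized CPM, with the young, the aged and the 8-AG treated group side by side; points are libraries, and the long tick with bars is the mean ± SD of 3. Slc6a6 falls from between 862 and 889 in young to between 374 and 456 in aged libraries and lies between 390.1 and 472 after treatment, while Cdo1, Csad and Ado keep overlapping ranges.

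Rod photoreceptors take up taurine through Slc6a6, and the rod marker genes moved in the same comparison. All 12 rod markers tested had lower levels in aged retina, 9 of them past the threshold, and their log2 fold changes had a median of -0.59, running from -1.18 for Gnat1, rod transducin, to -0.06 for Gngt1. The summed rod markers were 54002 to 58897 CPM in young, 33993 to 38633 in aged and 34892 to 45781 in 8-AG treated retina, with no rod marker at 0. Set against that sum, Slc6a6 stood at 14.6 to 16.2 CPM per 1000 CPM of rod markers in young libraries, at 10.5 to 11.8 in aged ones and at 9.99 to 11.2 in 8-AG treated ones. The ratio was thus lower in every aged and every treated library than in every young one, although by less than Slc6a6 itself. Müller glia markers, from cells that also carry Slc6a6, summed to 5402 to 5594 CPM in young and to 4716 to 4931 in aged retina, but the list went both ways, with 4 of 8 higher and 4 lower, 1 called up and 2 down, and a median log2 fold change of 0.06. Microglia and macrophage markers rose from 38.6 to 40.4 CPM to 116 to 198, all 8 of those tested passing the threshold upward. The part of these cell types in the Slc6a6 difference was not tested, and in bulk tissue fewer cells of a type cannot be told apart from less RNA per cell.

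**Figure D2:**
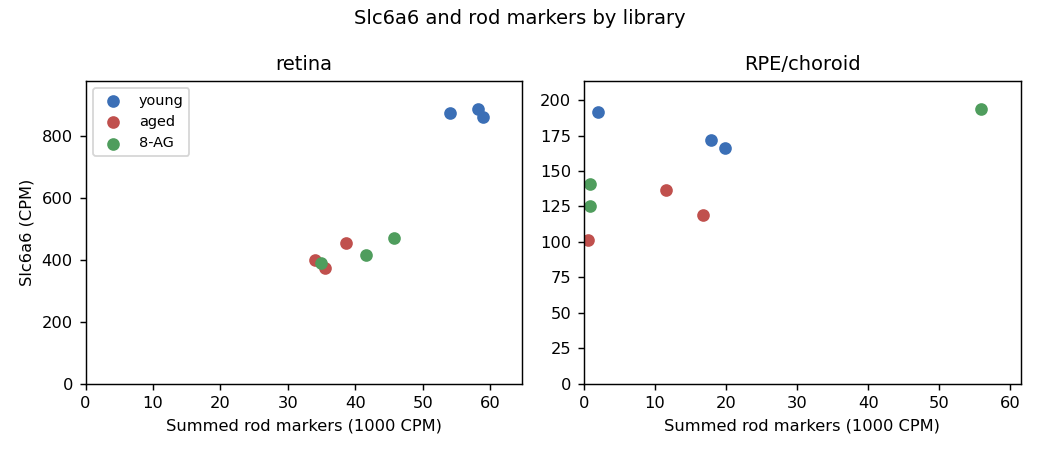
Slc6a6 in CPM against the summed rod markers in units of 1000 CPM, 1 point per library, retina on the left and RPE/choroid on the right, coloured by group. In retina the 3 young libraries stand apart at the upper right of the other 6; in RPE/choroid Slc6a6 runs from 102 in the library with 616 CPM of rod markers to 194 in the one with 55855, and a young library with 2003 holds 192.

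In 8-AG treated retina Slc6a6 stood near its aged level. The 3 treated retina libraries stood at 390.1, 416 and 472 CPM, a mean of 426 ± 41.7 (SD, n = 3), and overlapped the aged libraries. The log2 fold change against aged retina was 0.05 with a 95% interval from -0.17 to 0.27 (edgeR adjusted p = 0.996), so a return to the young level lay outside the interval. Leaving out single libraries moved the value between -0.02 and 0.13. Against young retina the treated libraries were lower by a log2 fold change of -1.04, with an interval from -1.21 to -0.87 (edgeR adjusted p = 5.12e-05), a comparison that uses the same young libraries as the aging one. In the comparison with young retina 1 of 5 members passed the threshold, against 14.9% of all genes tested, a share that was 6.96% without the second young library and 7.11% without the second treated one. In 8-AG against aged retina none of the 5 passed it, against 0.0205% or 3 of all 14631 genes, and none met the fold and P rule, against 0.957%. By edgeR 537 genes had an unadjusted P under 0.05, none of them a member, and DESeq2 called 19 at an adjusted p under 0.05.

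Slc6a13, the second carrier, went the other way in the retina without passing the test. It stood at 31.0, 34.1 and 8.17 CPM in young retina, at 44.1, 43.8 and 36.5 CPM in aged retina and at 42.0, 38.9 and 55.8 CPM in 8-AG treated retina. The third young library was far below the other two, and every aged and treated library was above every young one. The log2 fold change of aged against young retina was 0.77 with an interval from -0.75 to 2.29 (edgeR adjusted p = 0.447). Without the third young library it came to 0.34 with an interval from 0.10 to 0.59 (edgeR adjusted p = 0.0752). Treated retina differed from aged retina by 0.14, with an interval from -0.19 to 0.46, or by -0.03 without the third treated library. The third young library also held the lowest lens and RPE marker sums of its group, at 143 and 345 CPM. The aged libraries held at most 3.38 CPM of lens markers, with more Slc6a13 than any young library. The part of such tissues in the Slc6a13 level was not tested.

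The synthesis genes of the retina kept overlapping ranges in young, aged and treated rats. Cdo1, the cysteine dioxygenase that opens the pathway, stood at 13.5, 14.4 and 13.1 CPM in young, at 11.5, 14.1 and 10.3 CPM in aged and at 15.3, 15.1 and 13.4 CPM in 8-AG treated retina. Its log2 fold change was -0.19 with age (interval -0.49 to 0.10) and 0.28 with treatment (interval -0.04 to 0.60, edgeR unadjusted P = 0.0815 and adjusted p = 0.996). The second aged library held the most Cdo1 of its group, and without it the value with age was -0.33 (interval -0.61 to -0.06, edgeR unadjusted P = 0.0231 and adjusted p = 0.132) and that with treatment 0.42 (interval 0.11 to 0.74, edgeR unadjusted P = 0.0138 and adjusted p = 0.74). Without the third aged library, the lowest, they were -0.09 and 0.18. With the replicate number as a block the treatment value was 0.29 (edgeR unadjusted P = 0.048, adjusted p = 0.962), and in a fit of all 3 groups together 0.28 (edgeR unadjusted P = 0.0495, adjusted p = 0.96). Its aged libraries spread more widely than its young ones, and the aged range ran into both others.

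Csad, the decarboxylase that makes hypotaurine, stood at 22.5, 20.1 and 18.9 CPM in young, at 19.0, 17.8 and 18.5 CPM in aged and at 23.9, 18.2 and 19.3 CPM in 8-AG treated retina. Its log2 fold change was -0.15 with age (interval -0.36 to 0.06) and 0.15 with treatment (interval -0.12 to 0.42). The value with age was -0.08 without the first young library, and the value with treatment was 0.02 without the first and 0.23 without the second treated library. Ado, the cysteamine dioxygenase, stood at 10.2, 8.80 and 8.58 CPM in young, at 7.64, 7.71 and 8.98 CPM in aged and at 9.57, 7.01 and 9.08 CPM in treated retina, on 86 to 136 counts per library. Its log2 fold change was -0.18 with age (interval -0.49 to 0.12) and 0.08 with treatment (interval -0.29 to 0.44). Without the first young library the value with age was -0.10, and leaving out single libraries moved the treatment value between -0.01 and 0.20.

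In RPE/choroid, the tissue through which taurine enters from the blood, Slc6a6 was lower with age as well, but the difference did not pass the threshold across all genes. It stood at 172, 166 and 192 CPM in young, at 136, 102 and 119 CPM in aged and at 194, 141 and 126 CPM in 8-AG treated RPE/choroid. Every aged library was below every young one, and the treated libraries spanned both groups. Of the 4 members, 1 did not overlap between aged and young RPE/choroid, against 7.19% of all genes tested. The log2 fold change with age was -0.57 with a standard error of 0.15 and an interval from -0.94 to -0.21 (edgeR unadjusted P = 0.00855, adjusted p = 1), or 67.2% of the young level. This is a fold of 1.49, just under the 1.5 of the study's rule, so 0 of 4 members met that rule, against 1.35% of all genes tested, and 0 of 4 passed an adjusted p of 0.05, against 0% of 16047. The edgeR test gave 341 genes an unadjusted P under 0.05 there, and DESeq2 called 28 at an adjusted p under 0.05.

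Over all 9 RPE/choroid libraries, those richer in rod markers tended to hold more Slc6a6. The rod sums were 17865, 19878 and 2003 CPM in the young libraries, 11547, 616 and 16790 CPM in the aged ones and 55855, 896 and 874 CPM in the treated ones, in the order of the Slc6a6 levels above. The library with the lowest rod sum held the least Slc6a6 and the one with the highest held the most, while the third young library held 192 CPM of Slc6a6 at a low rod sum and the third aged library 119 at a high one. With the log2 rod sum as a covariate, an alternative chosen after seeing the data, the log2 fold change was -0.56 with an interval from -0.91 to -0.21 (edgeR unadjusted P = 0.00749, adjusted p = 0.318). With the left and right libraries of one number summed it was -0.63, and leaving out single libraries gave -0.70 to -0.48. Endothelial markers, of the vessels of the choroid, summed to 5194 to 6738 CPM in young and to 3080 to 4507 in aged RPE/choroid, and RPE markers to 15343 to 15466 and 10092 to 16507. The part of these cells in the Slc6a6 level was not tested.

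Treated RPE/choroid differed from aged RPE/choroid in Slc6a6 by a log2 fold change of 0.39, with an interval from -0.23 to 1.02. Without the first treated library, which held 194 CPM and stood apart in its markers, the difference was 0.16 with an interval from -0.31 to 0.63. With the rod covariate and all 6 libraries it was 0.42 with an interval from 0.04 to 0.80 (edgeR unadjusted P = 0.0366, adjusted p = 0.633). Against young RPE/choroid the treated libraries came to -0.20 (interval -0.75 to 0.36), and to -0.40 without the first treated library (interval -0.74 to -0.07, edgeR unadjusted P = 0.0276 and adjusted p = 0.773). It was -0.07 without the third and -0.11 without the second treated library, and -0.10 without the third young one. The treated libraries thus lay nearer to the young ones with the first treated library than without it.

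**Figure D3:**
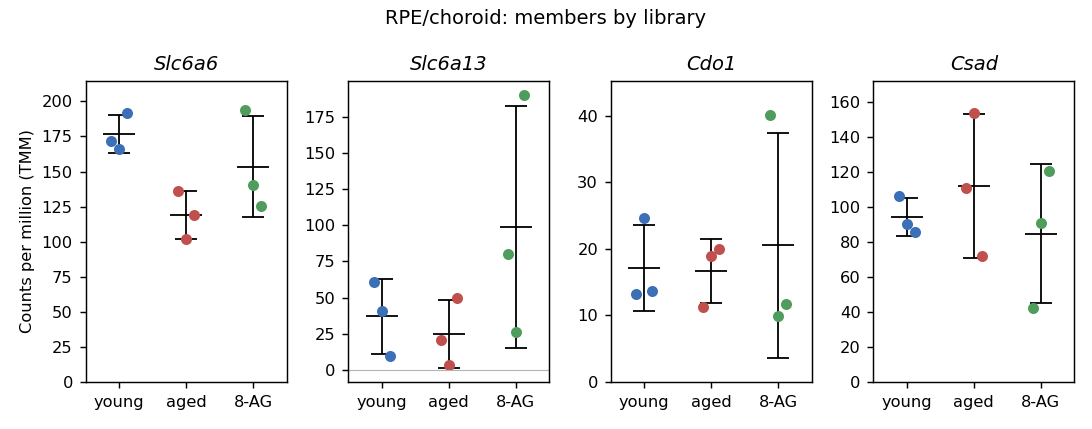
Level of each member in every RPE/choroid library, in TMM-normalized CPM, drawn like the retina plot with points for libraries and the mean ± SD of 3. Only Slc6a6 separates aged (102 to 136) from young (166 to 192) libraries, and Slc6a13 spans 3.45 to 190.4 across the 9.

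Slc6a13 was the most variable member in RPE/choroid. It stood at 60.7, 40.6 and 9.59 CPM in young, at 20.6, 3.45 and 50.1 CPM in aged and at 80.1, 26.2 and 190.4 CPM in 8-AG treated RPE/choroid. Within each group the highest library was several times the lowest, and the 3 groups overlapped. The third and first treated libraries held the most Slc6a13. They also held the most surface epithelium markers of all RPE/choroid libraries, 219 and 1276 CPM. The part of such tissue in the Slc6a13 level was not tested. The log2 fold change of treated against aged libraries was 2.02 with an interval from -0.72 to 4.77 (edgeR unadjusted P = 0.12, adjusted p = 1), and 2.13 without the first treated library. It was 1.105 without the third treated library and 3.06 without the third aged one, and 2.28 with the replicate block (interval 1.44 to 3.13, edgeR unadjusted P = 0.0017, adjusted p = 1). With age it was -0.60 with an interval from -3.07 to 1.88. Without the first young or the second aged library the aging value was -0.05 or -0.09, and without the third young or the third aged one -1.06 or -1.61.

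Csad in RPE/choroid stood at 106, 90.0 and 85.8 CPM in young, at 111, 154 and 71.8 CPM in aged and at 42.2, 91.0 and 121 CPM in treated libraries. The lowest value was that of the first treated library, the one poor in RPE markers, and the other 8 ranged from 71.8 to 154. Its log2 fold change was 0.25 with age (interval -0.45 to 0.95) and -0.39 with treatment (interval -1.54 to 0.75). The value with age was 0.50 without the third aged library (interval 0.03 to 0.97, edgeR unadjusted P = 0.0422 and adjusted p = 1) and -0.05 without the second. That with treatment was -0.08 without the first and -0.75 without the third treated library, -0.64 without the third and -0.09 without the second aged one, and -0.57 with the rod covariate (edgeR unadjusted P = 0.04, adjusted p = 0.633). Cdo1 stood at 13.2, 24.6 and 13.6 CPM in young, at 11.2, 18.9 and 19.9 CPM in aged and at 40.0, 9.97 and 11.6 CPM in treated libraries. Its highest value, again in the first treated library, decided the sign of the treatment difference, 0.34 with it and -0.62 without it (intervals -1.23 to 1.91 and -1.45 to 0.20). Ado, identified in this tissue only through its retina identifier, had 0 to 9 counts per library and was below the expression filter.

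None of the 4 members passed the threshold in 8-AG against aged RPE/choroid, against 0% of all 16257 genes, nor met the fold and P rule, against 1.65%. None passed it in 8-AG against young RPE/choroid, against 0% of 16215. At an unadjusted P under 0.05 edgeR gave 274 genes in the first of these comparisons and 341 in the second, or 611 and 798 without the first treated library, and DESeq2 called 81 and 100 at an adjusted p under 0.05. With the rod covariate edgeR gave 1159 and 4174 genes an unadjusted P under 0.05, and 1610 in aged against young RPE/choroid.

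**Figure D4:**
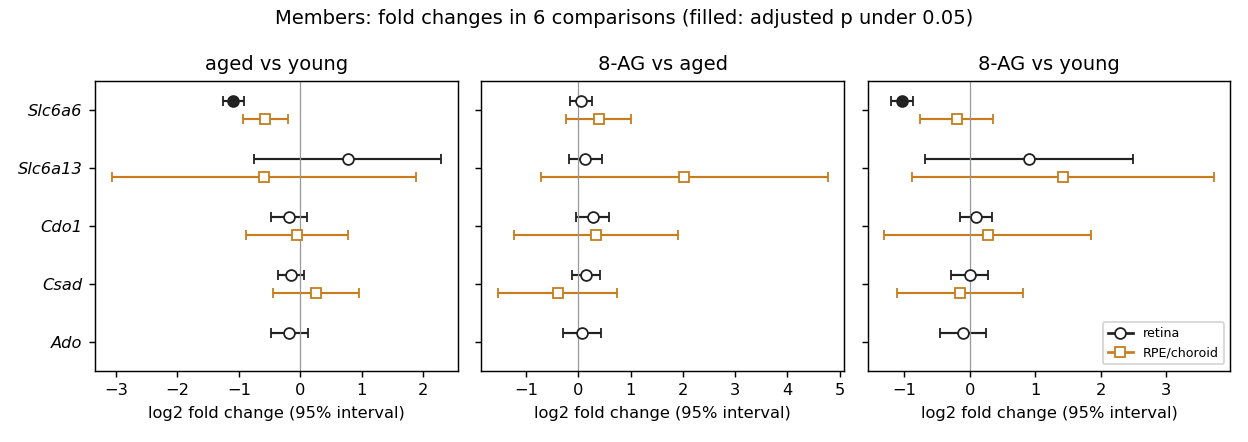
Log2 fold change of each member with its 95% interval in 6 comparisons, black circles for retina and orange squares for RPE/choroid; filled symbols have an edgeR adjusted p under 0.05. The 2 filled symbols are Slc6a6 in aged and in 8-AG treated retina against young retina, at -1.09 and -1.04. The intervals are widest for Slc6a13 except in 8-AG against aged retina, where that of Ado is widest.

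The size of the aging change was then compared between the tissues. The log2 fold change of Slc6a6 with age was the more negative in retina, with an interaction (retina minus RPE/choroid) of -0.52 and an interval from -0.93 to -0.11 (edgeR unadjusted P = 0.017, adjusted p = 0.404). No interaction of the 4 members passed the threshold, against 0.167% of all genes tested. With limma voom and sample weights the Slc6a6 interaction was -0.69 and did pass it (adjusted p = 0.0377), as did 1.86% of all genes in that fit, but it did not with limma on log2 CPM (adjusted p = 0.322), with left and right libraries summed (edgeR adjusted p = 0.421) or in any edgeR fit without a single library. For the 8-AG change, the interactions were -0.34 for Slc6a6, -1.89 for Slc6a13, -0.05 for Cdo1 and 0.54 for Csad, none past the threshold, against 0% of 16915 genes, with 424 at an unadjusted P under 0.05 by edgeR and 0 called by limma voom. Without the first treated RPE/choroid library 1434 genes had an unadjusted P under 0.05, and the member interactions were -0.11 for Slc6a6, -2.0 for Slc6a13, 0.90 for Cdo1 (edgeR unadjusted P = 0.0266, adjusted p = 0.58) and 0.23 for Csad. The Slc6a13 value was -0.97 without the third treated RPE/choroid library and -2.93 without the third aged one (edgeR unadjusted P = 0.0291, adjusted p = 1). It was -2.16 with the replicate block (interval -3.05 to -1.26, edgeR unadjusted P = 0.00106, adjusted p = 0.995) and -2.23 with limma voom (unadjusted P = 0.0152, adjusted p = 0.241). The Csad value was 0.90 without the third treated and 0.24 without the second aged RPE/choroid library, and 0.07 with limma voom, where that of Slc6a6 was -0.04.

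Around these members stand 72 further genes in 8 lists, which supply cysteine, use taurine, release it, or carry and sense related compounds. A further 2 genes were taken off these lists after their values were seen. Counts and medians over the lists therefore describe the genes kept, and their difference from all genes was not tested. In aged against young retina 59 of the 72 were tested, and 2 rose and 7 fell at an adjusted p under 0.05, with a median log2 fold change of -0.014. None passed in 8-AG against aged retina or in the RPE/choroid comparisons.

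The channel that releases taurine from swelling cells is built of Lrrc8 subunits, and 3 of the 5 passed the threshold with age, 2 down and 1 up. Among all genes tested 14.5% passed it, and 5 genes are too few to set against that share. Lrrc8b stood at 120.5, 138 and 132 CPM in young and at 92.2, 71.8 and 91.5 CPM in aged retina, which is -0.61 on the log2 scale (edgeR adjusted p = 0.00467). Lrrc8d, the subunit known to favour the passage of taurine, fell by 0.27 on the log2 scale (edgeR adjusted p = 0.0202). Lrrc8e rose by 0.78 from 3.04 to 4.59 CPM in young to 5.38 to 7.94 CPM in aged libraries. Lrrc8a, the subunit every such channel needs, and Lrrc8c did not pass the test.

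Of the 9 tested genes of other sulfur routes, not all of which act on cysteine or its sulfinate, 1 rose and 2 fell. Among all genes tested 14.5% passed the threshold. Sqor, which oxidizes hydrogen sulfide in mitochondria, stood at 4.93, 4.59 and 3.78 CPM in young and at 10.99, 15.5 and 12.4 CPM in aged retina, which is 1.55 on the log2 scale (edgeR adjusted p = 0.000482). The aged libraries were all above the young ones, and the treated libraries, at 11.1 to 11.8 CPM, were among the aged. The aspartate aminotransferases Got1 and Got2, which can also act on cysteine sulfinate, fell by 0.46 and 0.20 on the log2 scale. Of 16 tested genes of cysteine supply and glutathione, carriers among them, 0 passed the test with age, with log2 fold changes from -0.25 to 1.11. The same held for 4 tested genes of hypotaurine oxidation and taurine use, which lay between -0.02 and 0.20, among them Mto1 and Trmu of mitochondrial transfer RNA modification.

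Among other carriers, 9 were tested and 2 fell past the threshold, which 14.5% of all genes tested passed. Slc16a6, a monocarboxylate carrier, stood at 37.7, 40.4 and 34.7 CPM in young and at 25.2, 20.8 and 26.7 CPM in aged retina, which is -0.63 on the log2 scale (edgeR adjusted p = 0.00368). Slc36a1, a proton-coupled amino acid carrier, fell by 0.31. Of the 6 tested genes of osmolyte uptake, Hspa4l, a chaperone induced by osmotic stress, fell by 0.33. Nfat5, the factor that raises osmolyte carriers under osmotic stress, had a log2 fold change of -0.12 with an adjusted p of 0.508 by edgeR. None of 7 glycine and GABA receptor subunits passed, nor did any of the 3 tested decarboxylases related to Csad.

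**Figure D5:**
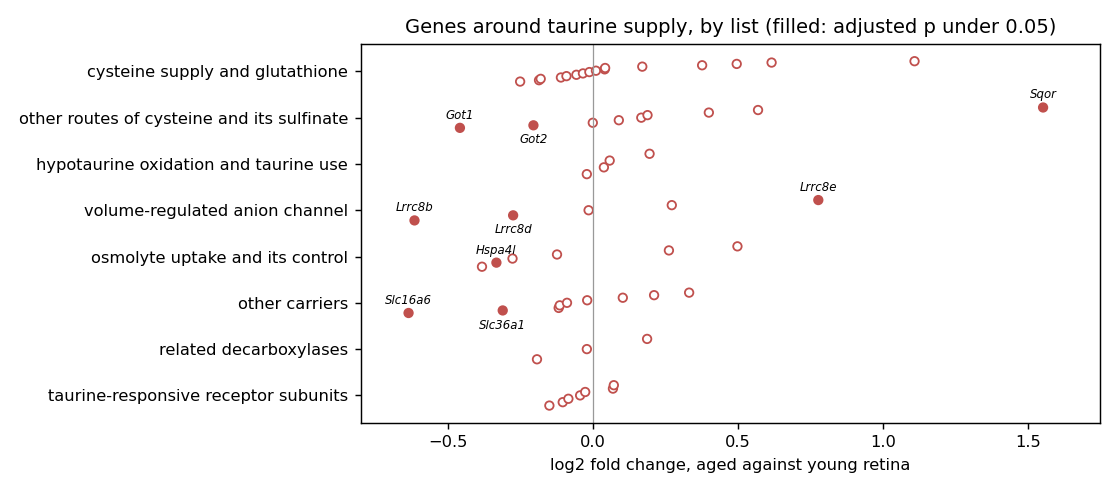
Log2 fold change of aged against young retina for the 59 tested genes around taurine supply, 1 point per gene and 1 row per list; filled points have an edgeR adjusted p under 0.05 and are named. Sqor lies farthest to the right at 1.55 and Slc16a6 and Lrrc8b farthest to the left at -0.63 and -0.61, while cysteine supply holds no filled point.

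In 8-AG against young retina, which shares its young libraries with the aging comparison, 6 of the 59 rose and 7 fell, or 22.0%. Among all genes tested 14.9% passed, and 6.96% without the second young library. The difference between the lists and all genes was not tested. Cbs, which starts the making of cysteine from homocysteine, rose with a log2 fold change of 1.01 (edgeR adjusted p = 0.0492) on levels of 1.55 to 3.16 CPM in young and 3.34 to 5.63 CPM in treated retina. Slc7a11, the cystine carrier, rose by 0.56 and Slc1a4, a neutral amino acid carrier, fell by 0.46. The aging values of Cbs, Slc7a11 and Slc1a4 were 0.38, 0.50 and 0.04, none past the threshold. Outside that list Sqor rose by 1.36, Lrrc8e by 0.86, Tst by 0.55 and Gad2 by 0.27, and Slc16a6 fell by 0.64, Lrrc8b by 0.61, Got1 by 0.36, Slc6a11 by 0.28, Nfat5 by 0.27 and Slc6a9 by 0.22.

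The genes whose levels most resembled those of a member were sought by Pearson's r of log2 CPM over the 9 libraries of a tissue, as a description. In retina Epb41l2 (r = 0.993), Agpat3 (r = 0.992) and Pitpnm1 (r = 0.990) were nearest to Slc6a6 among 12816 named genes, and these libraries share the age groups, which by themselves separate 3 libraries from 6. Slc4a11, Mboat2 and Fam171a2 were nearest to Csad, at r = 0.943 to 0.933. In RPE/choroid Tox4, Eml1 and Zbtb38 were nearest to Slc6a6, at r = 0.948 to 0.935 among 12974 genes, and Pdzrn3, Man1c1 and Nrbp2 to Csad, at r = 0.981 to 0.963. For Slc6a13, added after its values were seen, the nearest were Fam129a, Slc26a4 and Enpp2 in retina (r = 0.989 to 0.983) and Slc4a5, Il17re and Car12 in RPE/choroid (r = 0.987 to 0.981). Cdo1, added in the same way, was nearest to Cops5 in RPE/choroid at r = 0.971, where the muscle-rich library holds its highest level.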

How the data were processed

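For the retina the authors deposited RSEM expected counts per gene, 11.5% of which were not whole, and these were rounded. For RPE/choroid the deposited values are unnormalized counts of reads for each gene. The TMM-scaled signal that the authors deposited for retina was used to link symbols with identifiers and for nothing else. The submitters' processing notes name Rnor_6.0, Bowtie2 2.1.0, RSEM 1.2.15 and edgeR, without saying which step used them. Tables of the authors' own comparisons hold fold changes and p-values, and only their gene names were used. Among 11425 identifiers that received a name from those tables and also from values equal within 0.01, the names were the same for 93.3%.

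Every comparison used only the 6 libraries of its pair of groups in edgeR 4.0.16 under R 4.3.3 (filterByExpr, TMM, glmQLFit with robust=TRUE, glmQLFTest), with Benjamini-Hochberg adjustment over all genes tested. Levels are CPM with TMM factors over the 9 libraries of a tissue. Interactions used all 4 groups concerned. An exact permutation test of 3 against 3 cannot go below 0.1 and was not used. Correlations used a prior count of 2, over genes with a mean log2 CPM of at least 1.

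The members and lists were chosen with earlier results of these data known. Named genes are all members, at most 3 called genes per direction from each related list and comparison, and the 3 nearest genes by correlation. Of 72 related genes 68 were found, 2 further ones were taken off the lists after their values were seen and are not reported here, and marker sums use the markers found. The alternatives tried were DESeq2 1.42.0, RLE size factors, a replicate block, a fit of all 3 groups together, unrounded counts, dropping the filter or asking for 10 counts in each library, left and right libraries summed, limma 3.58.1 for interactions, a rod covariate and leaving out each library. Motifs and summaries were computed with Python 3.11.15 and pandas 2.3.3. The scripts were tested on simulated data.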

Additional observations from a re-analysis of the deposited data

How the results depend on the processing

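Of 491 member values recomputed under alternatives, 459 kept their direction and side of the threshold, 31 changed sign, all from members not called, and 1 became significant. Slc6a6 in retina stayed called in both comparisons with young retina, at -1.18 to -1.03 and -1.12 to -0.98 when single libraries were left out. The number of members with a tissue difference in the aging change was 0 by edgeR, 0 by limma on log2 CPM, 0 with left and right summed or with the block, and 1 by limma voom alone, which called 1.86% of all genes and where Slc6a6 stood at -0.69 and Cdo1 reversed to 0.42. The common dispersion was 0.0147 to 0.0215 in the retina comparisons and 0.195 to 0.396 in those of RPE/choroid, which had the deeper libraries.

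Signs changed without any call as follows. Csad in 8-AG against young retina, 0.00034 in the report's fit, came to -0.0012 with DESeq2, -0.016 with no filter and -0.00019 without rounding. With left and right libraries summed, the aging change in RPE/choroid was 0.037 for Slc6a13 and 0.061 for Cdo1. The tissue difference of Cdo1 in the 8-AG change was 0.47 with voom, 0.22 with limma on log2 CPM and 0.014 with left and right summed. Leaving out single libraries gave -0.023 to 0.13 for Slc6a6, -0.032 to 0.24 for Slc6a13 and -0.0095 to 0.20 for Ado in 8-AG against aged retina. It gave -0.12 to 0.075 for Csad and -0.19 to 0.017 for Ado in 8-AG against young retina. In RPE/choroid it gave -0.21 to 0.29 for Cdo1 and -0.050 to 0.50 for Csad with age, -0.62 to 0.66 for Cdo1 in 8-AG against aged, and -0.66 to 0.65 for Cdo1 and -0.49 to 0.18 for Csad in 8-AG against young. The tissue differences of Cdo1 ranged from -0.49 to 0.013 with age and from -0.38 to 0.90 with 8-AG. The causes were not tested.

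Deviations of libraries with equal replicate numbers correlated at -0.32 to 0.25 in retina and at -0.65 to 0.74 in RPE/choroid. These values cannot decide whether equal numbers mark paired libraries, because differences in tissue make-up, large in RPE/choroid, also enter them. With the replicate block, no count of members called moved. Slc6a13 in 8-AG against aged RPE/choroid came to 2.28 (edgeR unadjusted P = 0.0017, adjusted p = 1), Csad in 8-AG against young retina reversed to -0.0052, and the tissue difference of Cdo1 in the 8-AG change to 0.28. The block lowered the genes called in aged against young retina from 2122 to 1698.

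Over all genes, counts moved by more than 1.5 times in 8-AG against aged retina (3 by edgeR, 19 by DESeq2, 10 with no filter, 0 with at least 10 counts in every library and 0 with the block) and in the tissue difference of the aging change (28 by edgeR, 312 by voom, 51 by limma on log2 CPM, and 0 with the block or with left and right summed). They moved in RPE/choroid too, from 0 in the report's edgeR fits to 28, 81 and 100 by DESeq2. These stand for aged against young, 8-AG against aged and 8-AG against young. Leaving out single libraries gave 1245 to 2312 genes in aged against young retina (1245 without young 2 and 1336 without young 1, from 2122), 1026 to 2451 in 8-AG against young retina (1026, 1048, 1212 and 1314 without young 2, treated 2, young 3 and young 1, from 2163), 0 to 3 in 8-AG against aged retina, and 0 to 66 and 0 to 7 in the tissue differences of the aging and the 8-AG change. In RPE/choroid none was called that way, and genes at an unadjusted P under 0.05 by edgeR ran from 255 to 578, from 87 to 734 and from 115 to 1266 in the aged against young, 8-AG against aged and 8-AG against young comparisons.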
